A study of Mus musculus with 4 samples.

Results

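The 10 genes described here encode the core of transforming growth factor beta (TGF-β) signaling: the ligands Tgfb1, Tgfb2 and Tgfb3, the latent TGF-β binding protein Ltbp1, the receptors Tgfbr1, Tgfbr2 and Tgfbr3, and the signal transducers Smad2, Smad3 and Smad7. They were chosen by gene name, with earlier results of these data known. All 10 were found among 13085 genes measured by RNA-seq in 4 lines made from murine 3T3-L1 preadipocytes by stable transfection. The line named FLAG-CACUL1 overexpresses CACUL1, and its control, FLAG, carries the empty FLAG vector, both selected with G418. The line named sh-CACUL1 carries a hairpin that depletes CACUL1, and its control, sh-Luc, a hairpin against luciferase, both selected with Hygromycin B. All 4 lines had received the same adipogenic cocktail of rosiglitazone (5 μM), IBMX (0.5 mM), dexamethasone (1 μg/mL) and insulin (5 μg/mL), and RNA was taken after 8 days. The lines were grown from drug-resistant colonies, and the methods do not say whether a line was 1 clone or a pool.

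TGF-β ligands are secreted in a latent complex, in which LTBP1 tethers the ligand to the extracellular matrix until it is released. The free ligand binds the type II receptor TGFBR2, which phosphorylates the type I receptor TGFBR1, and TGFBR3 (betaglycan) presents ligand, TGF-β2 above all, to this pair. Activated TGFBR1 phosphorylates SMAD2 and SMAD3, which enter the nucleus with SMAD4, whereas the inhibitory SMAD7, itself induced by the pathway, blocks the receptor. In preadipocytes TGF-β is a known inhibitor of adipogenesis that acts through SMAD3, and it promotes the synthesis of extracellular matrix.

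Each line was sequenced once, so no difference between lines has a replicate check, no test across cultures was possible, and line, clone and treatment cannot be told apart. Values are FPKM (fragments counted for a transcript, divided by its length and by the size of the library) as deposited. Changes are given as log2 fold change after adding 1 to each FPKM, which understates the change of low genes. A gene was called higher or lower at 2-fold or more. The steps between low FPKM values gave estimated depths of 24200000 fragments for sh-Luc, 15000000 for sh-CACUL1 and 14400000 for each FLAG line, and the 95% exact Poisson intervals given with FPKM values rest on these estimates and cover counting error only. Cacul1 itself changed by 0.27 with overexpression and by -0.82 with depletion, both under 2-fold and each in the direction of its label. After median-of-ratios scaling between samples these changes were 0.14 and -0.40. The labels call the cells preadipocytes, but 10 adipocyte markers, among them Fabp4 and Adipoq, had sums of 917 FPKM (FLAG-CACUL1), 1748 FPKM (sh-Luc), 8563 FPKM (FLAG) and 17855 FPKM (sh-CACUL1). All 10 were called lower with overexpression and all 10 higher with depletion, beside 7.22% and 4.94% of all genes. With the controls exchanged 5 were lower with overexpression, and with depletion 3 were higher and 2 lower, at a median of 0.0038. Fabp4 alone made up 12543 FPKM of the sum in sh-CACUL1. The control lines differed in this sum too. Its part in the results was not tested, and in bulk RNA fewer cells of a type and less RNA per cell cannot be told apart.

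The promoters of Tgfb1, Tgfbr1 and Ltbp1 are shown because these genes were, with Smad7, the members with the largest range over the 4 lines. Each run is the 250 bases before a transcription start, taken from the RefSeq promoter table for GRCm38.p6, with an entry found for 6 members. Capitals mark SMAD boxes, searched as CAGAC or its reverse complement GTCTG, and GC boxes, searched as GGGCGG or CCGCCC.
Tgfb1, chr7:25686752-25687001, plus strand: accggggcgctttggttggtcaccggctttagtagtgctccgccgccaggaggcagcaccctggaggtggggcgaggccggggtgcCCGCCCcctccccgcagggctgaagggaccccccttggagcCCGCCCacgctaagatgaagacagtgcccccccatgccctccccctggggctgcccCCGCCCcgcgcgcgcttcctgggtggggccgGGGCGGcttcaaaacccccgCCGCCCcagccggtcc
Tgfbr1, chr4:47352972-47353221, plus strand: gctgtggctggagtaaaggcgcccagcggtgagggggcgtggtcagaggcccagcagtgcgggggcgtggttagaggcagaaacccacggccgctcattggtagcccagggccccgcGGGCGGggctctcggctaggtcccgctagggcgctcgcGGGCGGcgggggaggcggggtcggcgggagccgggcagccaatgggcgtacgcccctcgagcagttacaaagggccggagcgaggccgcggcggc
Ltbp1, chr17:75178531-75178780, plus strand: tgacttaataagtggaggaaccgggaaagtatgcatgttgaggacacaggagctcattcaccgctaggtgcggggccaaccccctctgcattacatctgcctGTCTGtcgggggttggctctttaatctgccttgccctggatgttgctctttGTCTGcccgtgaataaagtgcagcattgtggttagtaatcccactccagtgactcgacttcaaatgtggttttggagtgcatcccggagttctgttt
The Tgfb1 window held 5 GC boxes and the Tgfbr1 window 2, with no SMAD box in either. The Ltbp1 window, upstream of a start 29 bases from that of a measured transcript, held 2 SMAD boxes and no GC box. This window lies inside the gene, which begins at 75005568, and the measured row of Ltbp1 joined 2 accessions. The promoter at the beginning of the gene is not shown. Of all 32851 promoter windows of this length, 42.2% held a SMAD box and 32.7% a GC box. The bases G and C made up 75.2% of the Tgfb1 window, 74.8% of the Tgfbr1 window and 50.8% of the Ltbp1 window. The median over all windows was 52.4%. The motif matches are a description of the sequence and not of binding.

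Tgfb1, on chromosome 7 of GRCm38 from 25687002 to 25705077, encodes TGF-β1, the ligand most studied in fibrosis. It was at 58.7 FPKM in FLAG (interval 56.0 to 61.4), 44.6 FPKM in FLAG-CACUL1 (42.2 to 46.9), 20.7 FPKM in sh-Luc (19.5 to 21.9) and 6.38 FPKM in sh-CACUL1 (5.54 to 7.31). The 4 intervals did not overlap, and both FLAG lines lay above both hairpin lines. The change was -0.39 on the log2 scale in FLAG-CACUL1 against FLAG, under 2-fold, and -1.55 in sh-CACUL1 against sh-Luc.

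Tgfb2, on chromosome 1 from 186622792 to 186705989, was the least abundant ligand. It was at 0.783 FPKM in FLAG, 0.978 FPKM in FLAG-CACUL1, 2.16 FPKM in sh-Luc and 1.09 FPKM in sh-CACUL1. sh-Luc alone stood above the others, whose neighboring intervals overlapped. Overexpression went with a change of 0.15 and depletion with -0.60. Its exons share 2.42% of their bases with the opposite-strand transcript Gm29491.

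Tgfb3, on chromosome 12 from 86056745 to 86079041, was at 7.22 FPKM in FLAG, 10.2 FPKM in FLAG-CACUL1, 16.5 FPKM in sh-Luc and 7.58 FPKM in sh-CACUL1. The highest level was again in sh-Luc, and the intervals of FLAG and sh-CACUL1 overlapped. The change of Tgfb3 was 0.44 with overexpression and -1.03 with depletion, the latter just past 2-fold, and with the controls exchanged -0.65 and 0.061. In the exons measured, 7.60% and 4.82% of the bases are shared with the opposite-strand transcripts Gm48008 and Gm37804, and whether counting used strand is not given in the sources used here.

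The ligands therefore differed in their mixture. Tgfb1 made up 88.0% of the summed FPKM of the 3 ligands in FLAG, 80.0% with CACUL1 overexpressed, 52.5% in sh-Luc and 42.4% with CACUL1 depleted. Their sum followed the same order of lines, at 66.7, 55.7, 39.3 and 15.1 FPKM. The ratio of Tgfb1 to Tgfb3, which does not depend on the scaling between samples, was 8.12 in FLAG (95% exact binomial interval 7.25 to 9.14), 4.38 in FLAG-CACUL1 (3.95 to 4.86), 1.25 in sh-Luc (1.15 to 1.36) and 0.842 in sh-CACUL1 (0.708 to 1.000). sh-CACUL1 was the only line with more Tgfb3 than Tgfb1, by a margin near its counting error.

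Ltbp1, which anchors the latent ligand in the matrix, lies on chromosome 17 from 75005568 to 75392512. It was at 7.05 FPKM in FLAG, 21.0 FPKM in FLAG-CACUL1, 16.3 FPKM in sh-Luc and 4.45 FPKM in sh-CACUL1, with no overlap of intervals. It was the only member called in both comparisons in opposite directions, at 1.45 with overexpression and -1.67 with depletion. With the controls exchanged, the directions stayed but the changes were 0.35 and -0.56. The ratio of Ltbp1 to Tgfb1 was lowest in FLAG, at 0.120, and was 0.472 with CACUL1 overexpressed, 0.698 with it depleted and 0.790 in sh-Luc.

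**Figure D1:**
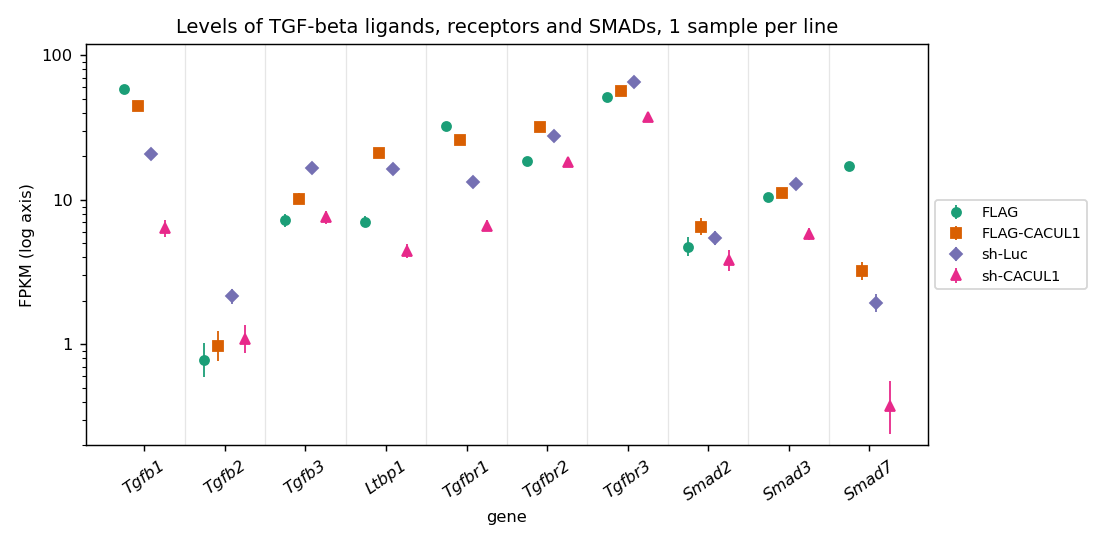
FPKM on a log axis of the 10 genes in the 4 lines, 1 sample each, with bars for the 95% exact Poisson interval of the estimated fragments. Smad7, Tgfb1 and Tgfbr1 are highest in FLAG, then FLAG-CACUL1, then sh-Luc, and sh-CACUL1 is lowest for 8 of the 10 genes.

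Tgfbr1, on chromosome 4 from 47353222 to 47414931, encodes the type I receptor kinase. It was at 32.6 FPKM in FLAG, 25.8 FPKM in FLAG-CACUL1, 13.3 FPKM in sh-Luc and 6.65 FPKM in sh-CACUL1. This is the order of the lines seen for Tgfb1, and no intervals overlapped. Neither change was called, at -0.32 with overexpression and -0.91 with depletion.

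Tgfbr2, on chromosome 9 from 116084293 to 116175360, encodes the ligand-binding type II kinase and had another order. It was at 18.6 FPKM in FLAG, 32.2 FPKM in FLAG-CACUL1, 27.5 FPKM in sh-Luc and 18.3 FPKM in sh-CACUL1. FLAG and sh-CACUL1, the lines with the higher adipocyte marker sums, overlapped at the bottom of this order. The changes were 0.76 and -0.56, both under 2-fold. The ratio of Tgfbr1 to Tgfbr2 went from 1.75 in FLAG (binomial interval 1.63 to 1.89) to 0.803 in FLAG-CACUL1 (0.753 to 0.857), 0.485 in sh-Luc (0.456 to 0.516) and 0.363 in sh-CACUL1 (0.326 to 0.402). FLAG was the only line with more Tgfbr1 than Tgfbr2.

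Tgfbr3, on chromosome 5 from 107106570 to 107289629, was the most abundant receptor in every line. It was at 51.7 FPKM in FLAG, 56.4 FPKM in FLAG-CACUL1, 65.2 FPKM in sh-Luc and 37.5 FPKM in sh-CACUL1, and made up between 49.3% and 61.5% of the summed receptor FPKM. Its range over the lines, 1.74-fold, was among the narrowest of the members. The changes were 0.12 with overexpression (-0.01 after median-of-ratios scaling) and -0.78 with depletion. A same-strand transcript, Gm43422, shares 4.88% of its exonic bases.

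Smad2 and Smad3 encode the transducers that TGFBR1 phosphorylates. Smad2 was at 4.76 FPKM in FLAG, 6.53 FPKM in FLAG-CACUL1, 5.46 FPKM in sh-Luc and 3.83 FPKM in sh-CACUL1. Every pair of neighbors in this order had overlapping intervals, computed with the shorter of the measured transcripts, 2410 bases. With the longest, 8089 bases, the intervals would be narrower, and whether they overlap was not computed. The changes of Smad2, 0.39 with overexpression and -0.42 with depletion, were under 2-fold. Smad3, on chromosome 9 from 63646767 to 63757994, was at 10.5 FPKM in FLAG, 11.2 FPKM in FLAG-CACUL1, 12.9 FPKM in sh-Luc and 5.78 FPKM in sh-CACUL1. The FLAG lines overlapped, and sh-CACUL1 lay below the 3 other lines. The change of Smad3 was 0.09 with overexpression (-0.03 after median-of-ratios scaling) and -1.04 with depletion, just past 2-fold (-0.76 against FLAG). Smad3 exceeded Smad2 in every line, with ratios between 1.51 and 2.36.

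Smad7, the inhibitor that the pathway itself induces, varied most of all members, over 45.7-fold. It was at 17.04 FPKM in FLAG (interval 16.03 to 18.1), 3.22 FPKM in FLAG-CACUL1 (2.80 to 3.71), 1.95 FPKM in sh-Luc (1.69 to 2.23) and 0.373 FPKM in sh-CACUL1 (0.240 to 0.557). The lowest value stands for an estimated 24 fragments. No intervals overlapped, and FLAG stood far above the other lines. Smad7 was lower in both conditions than in their own controls, at -2.09 with overexpression and -1.10 with depletion. Without the added 1, the log2 ratio in sh-CACUL1 was -2.38 (binomial interval -3.05 to -1.76). Against sh-Luc, however, Smad7 in FLAG-CACUL1 was higher, at 0.52, so its direction under overexpression rests on the FLAG sample. Per Smad3, its level was 1.63 in FLAG (interval 1.48 to 1.79), 0.287 in FLAG-CACUL1 (0.245 to 0.335), 0.151 in sh-Luc (0.129 to 0.175) and 0.0644 in sh-CACUL1 (0.0410 to 0.0976).

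**Figure D2:**
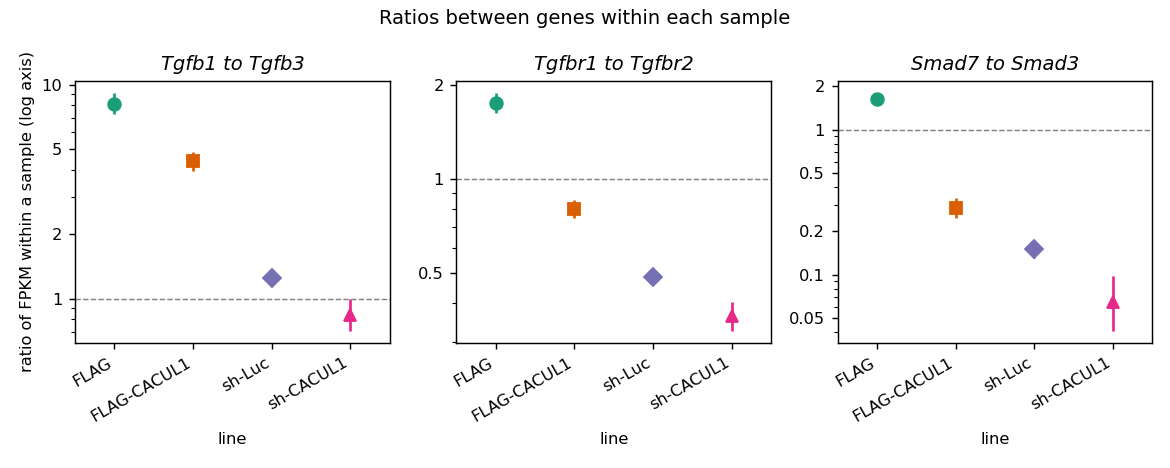
Ratios of FPKM between pairs of members within each sample, on log axes, with 95% exact binomial intervals from the estimated fragments and a dashed line at 1. All 3 ratios decline from FLAG through FLAG-CACUL1 and sh-Luc to sh-CACUL1, and Smad7 exceeds Smad3 in FLAG only.

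Counted over the members, FLAG-CACUL1 against FLAG gave 1 gene higher (Ltbp1) and 1 lower (Smad7), with a median of 0.14. Of all 13085 genes, 7.51% were called higher and 7.22% lower in this comparison, with a median of 0.09, so neither count of 1 in 10 stood clear of the background. In sh-CACUL1 against sh-Luc 5 members were called lower (Tgfb1, Tgfb3, Ltbp1, Smad3 and Smad7) and none higher, and all 10 lay below 0, with a median of -0.97. Here 16.4% of all genes were called lower and 4.94% higher, with a median of -0.30. The scaling between samples moved this comparison. Median-of-ratios scaling raised the median of genes with at least 1 FPKM in every sample by 0.42, and 23.2% of all called genes were higher before it and 55.8% after it. After this scaling Tgfb1 (-1.12) and Ltbp1 (-1.25) remained past 2-fold, Tgfb3 was at -0.60, Smad3 at -0.61 and Smad7 at -0.88, and Smad2 was at -0.03. Relative to the deposited median of those expressed genes, the 10 members lay between -1.24 and 0.01.

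The 2 control lines, which differ in vector, drug and line but not in CACUL1 treatment, were compared as a yardstick, and they share a sample with each of the comparisons above. FLAG exceeded sh-Luc at least 2-fold for Smad7 (2.61), Tgfb1 (1.46) and Tgfbr1 (1.23), and Ltbp1 (-1.10) and Tgfb3 (-1.09) were lower. Of all genes 8.58% were called higher and 12.4% lower. After median-of-ratios scaling the 3 higher genes remained past 2-fold and Ltbp1 and Tgfb3 did not. For Smad7, Tgfb1, Tgfbr1, Tgfb2, Tgfb3, Tgfbr3 and Smad3 the difference between the controls was larger in size than that of FLAG-CACUL1 from FLAG. For Smad7, Tgfb3, Tgfbr1 and Tgfb2 it was also larger than that of sh-CACUL1 from sh-Luc. Of the members called with depletion, these include Smad7 (-1.10) and Tgfb3 (-1.03) but not Tgfb1, Ltbp1 and Smad3. These orders hold for FPKM as deposited. After median-of-ratios scaling Tgfb1 differed more between the controls (1.74) than with depletion (-1.12), and after quantile normalization as well (1.54 and -1.16). After median-of-ratios scaling Ltbp1 (-0.83 and -1.25) and Smad3 (-0.006 and -0.61) still differed less between the controls. The macrophage marker Cd68 followed FLAG as well, at 16.2 FPKM there and between 0.962 and 1.44 FPKM in the other lines, with Csf1r below 1 FPKM in all 4 and Ptprc and Adgre1 not analysed here, and its part was not tested. With the controls exchanged, Tgfb1 and Tgfbr1 in FLAG-CACUL1 were higher than in sh-Luc, at 1.07 and 0.91, whereas both were lower in sh-CACUL1 than in FLAG, at -3.02 and -2.14.

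**Figure D3:**
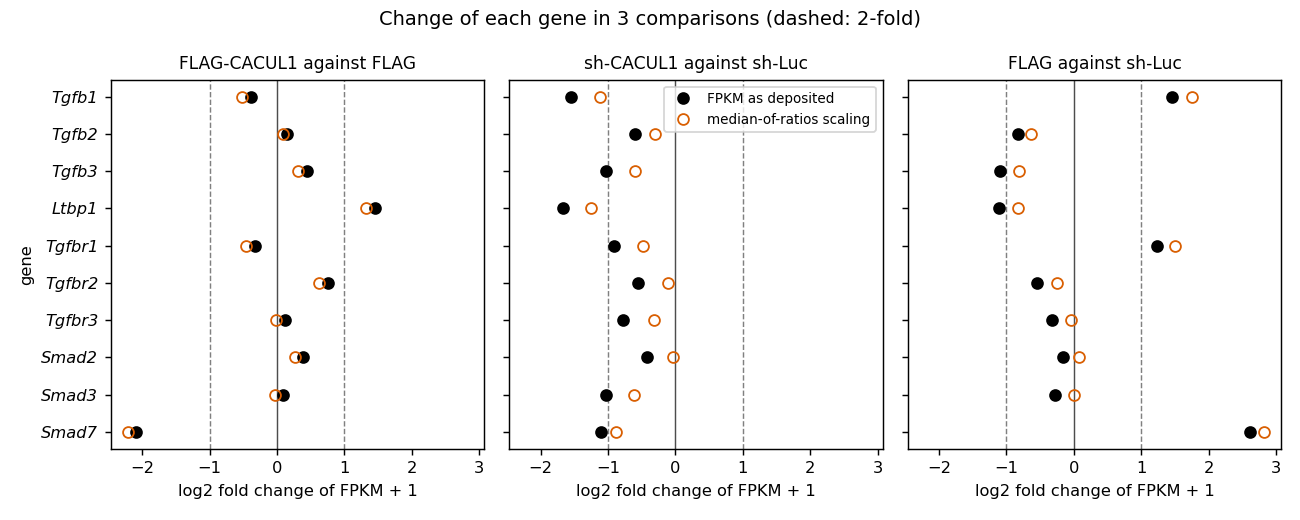
Log2 fold change of FPKM + 1 of each gene in the 3 comparisons, with filled points for FPKM as deposited, open points after median-of-ratios scaling and dashed lines at 2-fold. In sh-CACUL1 against sh-Luc all 10 points are below 0 and move up by scaling, with Tgfb1 and Ltbp1 still past 2-fold.

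The other genes of the pathway were described by lists, also chosen with earlier results of these data known. The first held genes of ligand storage and activation, of which 9 of 14 were measured and the others were not analysed here. In sh-CACUL1 7 of the 9 were called lower and 1 higher, with a median of -1.60. Of all genes 16.4% were lower and 4.94% higher, with a median of -0.30. After median-of-ratios scaling 5 of the list were lower and 1 higher, with a median of -1.22, beside 0.008 for all genes. Against FLAG, 5 were lower and none higher, with a median of -1.18. Thbs1, whose product thrombospondin-1 can release TGF-β1 from its latent form, was at 12.6 FPKM in FLAG, 47.4 FPKM in FLAG-CACUL1, 74.98 FPKM in sh-Luc and 10.7 FPKM in sh-CACUL1. Its change was 1.83 with overexpression and -2.70 with depletion, but -0.65 and -0.22 with the controls exchanged. Itgav, the αv integrin subunit that binds latent TGF-β, was at 45.0 FPKM in FLAG and 29.3 FPKM in FLAG-CACUL1, and at 22.9 FPKM in sh-Luc but 4.93 FPKM with CACUL1 depleted. Emilin1 (-1.78), Ltbp4 (-1.65) and the microfibril gene Fbn1 (-1.60) were also lower in sh-CACUL1. Against FLAG, Ltbp4 was higher there, at 0.86, while Emilin1 (-1.85) and Fbn1 (-2.50) were lower again. In FLAG-CACUL1 the protease gene Bmp1 was called higher (1.17) and Ltbp3 lower (-1.24). With Thbs1, 2 of 9 were thus higher and 1 lower, with a median of 0.38, beside 7.51% and 7.22% of all genes. Against sh-Luc, Bmp1 was at -0.04 and Ltbp3 at 0.04, so both calls rest on the FLAG sample. Ltbp2, named after its values were seen, was the 1 gene higher with depletion, with 53.7 FPKM and 24.5 FPKM in its control, and was at -0.41 against FLAG.

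Activins and some growth differentiation factors signal to the same SMAD2 and SMAD3, and 9 of 13 genes on the list of this branch and other receptors were measured. Gdf11, a ligand of this branch, stood at 1.26 FPKM in FLAG but 18.5 FPKM with CACUL1 overexpressed, and at 8.85 FPKM in sh-Luc but 0.775 FPKM with CACUL1 depleted. Its changes of 3.11 and -2.47 were the largest of the list in both comparisons, but with the controls exchanged they were 0.99 and -0.35, both under 2-fold. Fst, which encodes the activin-binding inhibitor follistatin, changed by 1.94 with overexpression and -1.04 with depletion, and by -1.21 and 2.11 with the controls exchanged. The activin receptor gene Acvr1b was at 35.2 FPKM in FLAG and between 5.27 and 6.53 FPKM in the other lines, and Acvr2b was at 3.35 FPKM in FLAG and below 1 FPKM in the others, so that both were called lower with overexpression against FLAG but were at 0.26 and 0.08 against sh-Luc. The activin subunit gene Inhba was at 10.8 FPKM in FLAG, 5.70 FPKM in FLAG-CACUL1, 3.46 FPKM in sh-Luc and 0.140 FPKM in sh-CACUL1, in the order of Tgfb1. In all, 2 of the 9 were called higher and 2 lower in FLAG-CACUL1, with a median of -0.53, beside 7.51% and 7.22% of all genes. In sh-CACUL1 4 were lower, with Acvr2a (-1.39, and -0.97 against FLAG), beside 16.4% of all genes. The list median was -0.47, near the -0.30 of all genes. After median-of-ratios scaling 2 were lower, with a median of -0.29, beside 0.008 for all genes. With the controls exchanged 1 was lower in FLAG-CACUL1, and 5 were lower and 1 higher in sh-CACUL1.

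The remaining SMADs and regulators of the pathway were all measured, 19 genes. In FLAG-CACUL1 only Fkbp1a was called higher (1.07) and only the inhibitory Smad6 lower (-1.45), beside 7.51% and 7.22% of all genes. After scaling none was higher and 2 were lower, beside 755 and 1169 of all 13085 genes. Against sh-Luc neither Fkbp1a nor Smad6 was called, at 0.45 and 0.17. Smad6 was at 9.41 FPKM in FLAG and between 1.66 and 2.82 FPKM in the other lines. In sh-CACUL1 4 genes were called lower, the corepressor genes Tgif1 (-1.49) and Ski (-1.17), the ubiquitin ligase gene Smurf1 (-1.30) and Smad1 (-1.26), with a list median of -0.57, and after median-of-ratios scaling 1 was. The 4 genes are 21.1% of the list, near the 16.4% of all genes called lower, and Ski was at -0.88 against FLAG.

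Among 25 genes known to be induced by TGF-β in mesenchymal cells, 23 were measured. In sh-CACUL1 15 of the 23 were called lower and 1 higher, with a median of -1.86. These are 65.2% and 4.35% of the list, beside 16.4% and 4.94% of all genes, whose median was -0.30. After median-of-ratios scaling 13 were lower and 1 higher, with a median of -1.51, beside 0.008 for all genes. Of all called genes, 55.8% were then higher. Against FLAG, 16 of the list were lower and 2 higher, with a median of -2.33. The fibronectin gene Fn1 had 35.8 FPKM after depletion against 745 FPKM in sh-Luc, a change of -4.34, and 928 and 986 FPKM in the FLAG lines. Lox, which encodes the collagen crosslinking enzyme lysyl oxidase, was at 29.4 FPKM in sh-CACUL1 and between 302 and 442 FPKM in the other lines. The collagen gene Col1a1 was at 156 FPKM in sh-CACUL1, 1095 FPKM in sh-Luc, 2412 FPKM in FLAG and 2424 FPKM in FLAG-CACUL1. The cell cycle inhibitor gene Cdkn2b changed by -2.88 and the smooth muscle actin gene Acta2 by -3.91 in sh-CACUL1. Against FLAG the changes were -2.18 for Cdkn2b and -0.78 for Acta2, so the call of Acta2 rests on sh-Luc. Adam12, named after its values were seen, was the exception, with 19.7 FPKM after depletion and 6.10 FPKM in its control. Matrix genes on this list are also expressed by preadipocytes, and Pdgfrb, a preadipocyte marker, stood at 7.33 FPKM after depletion and 60.1 FPKM in its control. The preadipocyte markers Thy1 (4.41) and Dlk1 (4.19) went the other way with depletion. Against FLAG the changes were -2.10 for Pdgfrb, -0.30 for Thy1 and -2.14 for Dlk1. Of 7 preadipocyte markers measured, 4 were called lower and 2 higher with depletion, beside 16.4% and 4.94% of all genes. Their summed level was 115 FPKM with depletion and 197 FPKM in the control. With overexpression 5 markers were higher and 1 lower, beside 7.51% and 7.22% of all genes, with sums of 701 FPKM and 291 FPKM in the control. With the controls exchanged 3 were lower and none higher with depletion, and 3 higher and 2 lower with overexpression, and their part in the result was not tested.

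In FLAG-CACUL1 against FLAG the same list was split, with 7 genes called higher, 3 lower and a median of 0.09. These are 30.4% and 13.0% of the list, beside 7.51% and 7.22% of all genes. Bhlhe40 was at 159 FPKM in FLAG, 51.9 FPKM in FLAG-CACUL1, 23.3 FPKM in sh-Luc and 14.2 FPKM in sh-CACUL1, highest in FLAG. Its change with overexpression was -1.60, and 1.12 against sh-Luc. Acta2 (2.65), Tgfbi (1.81) and Snai2 (1.80) were higher in FLAG-CACUL1. Against sh-Luc, Acta2 and Snai2 in FLAG-CACUL1 changed by -0.47 and -0.50, and Tgfbi by 4.15. With sh-Luc as the control, 7 genes were called higher and none lower, at a median of 0.40.

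**Figure D4:**
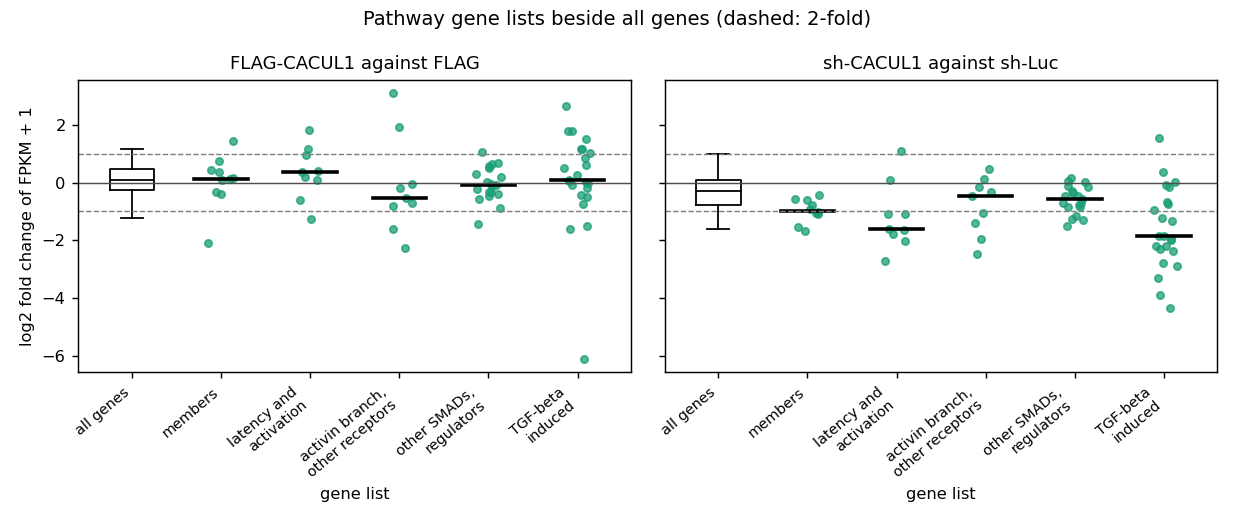
Log2 fold change of FPKM + 1 of all genes (box with the quartiles, whiskers at the 5th and 95th percentiles) and of each gene on the 5 lists, with black bars at list medians and dashed lines at 2-fold. In sh-CACUL1 the genes induced by TGF-β center on -1.86 and the members on -0.97, against -0.30 for all genes, and in FLAG-CACUL1 the lists center between -0.53 and 0.38.

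The genes whose pattern over the 4 samples was most like that of the 3 most variable members were found by the root mean square difference of centered log2(FPKM + 1) among 11412 genes with at least 1 FPKM in any sample. For Smad7 they were Slc41a1 (0.05), Wdr54 (0.14) and Pfkp (0.16). Jak1 (0.09), Soat1 (0.09) and Gpr137b (0.10) were nearest to Tgfb1. For Tgfbr1 they were R3hcc1 (0.06), Cers1 (0.08) and Cyp4v3 (0.08). Jak1, for example, was at 89.0 FPKM in FLAG and 71.5, 35.6 and 12.1 FPKM in the others, in the order of lines of Tgfb1. With 4 samples such likeness is a description only.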

How the data were processed

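mRNA-seq covered 4 stable 3T3-L1 lines with 1 sample each. Library preparation and sequencing were done by a company, and the authors deposited FPKM values for 13110 rows of RefSeq transcripts per sample, with mm10 as the genome build per the labels. The aligner, the program that computed FPKM, the scaling between samples and any filter are not given in the sources used here. Rows were named through the RefSeq table of GENCODE M21 (GRCm38, the assembly mm10 stands for). No symbol was found for 196 rows and 8 rows matched several, and 50 rows of 25 symbols were summed, which gave 13085 genes. Each member came from 1 row.

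Depth was estimated as the spacing, in FPKM times kilobases, at which low values of rows with a single transcript of at least 3000 bases were most periodic. Fragments of a member were estimated from it and the transcript length (the shortest where a row held several accessions), for exact Poisson and Clopper-Pearson binomial intervals at 95%. Fold changes used log2(FPKM + 1), a 2-fold cut-off as in the study's methods, and no test. Alternatives were a pseudocount of 0.1, none, filters at 1 FPKM, quantile normalization, median-of-ratios scaling, the other control, the highest row, and 3-fold.

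The members and lists were chosen with earlier results of these data known. Named genes were all 10 members, from each pathway list the up to 5 called genes with the largest change in each comparison with the own control, and the 3 genes nearest in pattern to each of the 3 members with the widest range. Marker genes were also allowed. A gene that this rule names is not reported here. Scripts were tested on simulated data. Python 3.11.15, numpy 2.4.6, scipy 1.17.1, pandas 2.3.3 and matplotlib 3.10.9 were used.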

Additional observations from a re-analysis of the deposited data

How the results depend on the processing

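No paired analysis was possible because each line had 1 sample. Of the members, FLAG-CACUL1 against FLAG gave 2 calls, and 1 with at least 1 FPKM in all samples (which leaves out Smad7 and Tgfb2), 1 with the other control and 1 at 3-fold. sh-CACUL1 against sh-Luc gave 5, and 2 after quantile normalization, 2 after median-of-ratios scaling, 3 with the other control and 1 at 3-fold. FLAG against sh-Luc gave 5, and 3 after either scaling and 1 at 3-fold. The 3 pathway lists together held 37 genes. Their 9 calls in FLAG-CACUL1 (5 higher, 4 lower) became 4 with the other control (2 and 2) and 5 at 3-fold (3 and 2). The 16 in sh-CACUL1 (1 higher, 15 lower) became 10 after quantile normalization (1 and 9) and 9 after median-of-ratios scaling (1 and 8). At 3-fold 7 remained, all lower. Lower calls in sh-CACUL1 became fewer over all 13085 genes too under both scalings, so this drop was not particular to the lists. As deposited, 16.4% of all genes were lower there. The 12 between the controls (7 higher, 5 lower) became 7 at 3-fold and 7 when every sample had to reach 1 FPKM. Of the genes induced by TGF-β, the 10 calls in FLAG-CACUL1 became 5 at 3-fold, and the 16 in sh-CACUL1 and the 12 between the controls stayed within 1.5 times. With the other control, called members that changed sign were Smad7 in FLAG-CACUL1 (0.52) and Tgfb3 in sh-CACUL1 (0.061). Members under 2-fold also changed sign, in FLAG-CACUL1 Tgfb1 (1.07), Tgfbr1 (0.91), Tgfb2 (-0.68), Tgfb3 (-0.65), Tgfbr3 (-0.20) and Smad3 (-0.18), and in sh-CACUL1 Tgfb2 (0.23). The cause was not tested, beyond the fewer genes that a filter or a higher cut-off leaves. Among all called genes, the share that was higher went from 51.0% to 39.2% in FLAG-CACUL1 and from 40.8% to 62.6% in FLAG against sh-Luc after median-of-ratios scaling. With quantile normalization it was 44.9%, 52.1% in sh-CACUL1 and 54.1%, respectively. Depth limits Tgfb2 and, in sh-CACUL1, Smad7, which rest on 58 to 267 and 24 estimated fragments.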

Other observations

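Markers of undifferentiated cells differed between the control lines. Thy1 was at 42.4 FPKM in FLAG, 144 FPKM in FLAG-CACUL1, 0.663 FPKM in sh-Luc and 34.3 FPKM in sh-CACUL1, and Dlk1, an inhibitor of adipogenesis, at 97.2, 39.4, 0.220 and 21.2 FPKM in the same order. Thy1 and Dlk1 were thus close to undetected in sh-Luc, a line with a low adipocyte marker sum, and Pdgfra was highest there, at 84.9 FPKM. The endothelial marker Pecam1 was at or below 0.301 FPKM in every line, and the epithelial and muscle markers were not analysed here.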
